A study of Mus musculus with 18 samples.

Results

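The mitochondrially encoded transcripts were examined through 10 genes, the 2 ribosomal RNAs mt-Rnr1 and mt-Rnr2 and the 8 mRNAs mt-Nd1, mt-Nd2, mt-Nd4, mt-Nd5, mt-Co1, mt-Co2, mt-Co3 and mt-Cytb. They were taken by gene identifier from a table of 54446 genes, which holds 37 mitochondrially encoded genes, and 54409 of its identifiers were paired with a symbol. All 10 passed the filter on low values. The levels were compared in 18 libraries of mouse eosinophils in 6 groups of 3, labelled C57BL/6. According to the methods, the cells came from the peritoneal cavity of NJ.1638 Il5Tg mice, a line whose IL-5 transgene raises eosinophil numbers, were depleted of Thy1.2+ and B220+ cells, and were taken up again with anti-Siglec-F beads after culture. The ages of these mice are not given in the sources used here. Every group, the control groups included, was cultured for 18 h with apoptotic cells (ACs), wild-type thymocytes killed with dexamethasone, at 5 ACs per eosinophil. The Type 1 experiment held a group with ACs alone and groups that also received E. coli, IFN-γ, or IFN-γ followed by E. coli (IFN-γ + E. coli + ACs, also called the combination), and the IL-4 experiment comprised ACs alone and IL-4 + ACs. No group without ACs was analysed here.

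The mitochondrial genome is a small circle whose heavy-strand transcript is cut at the tRNAs between genes into 2 rRNAs, tRNAs and mRNAs. The rRNAs form the core of the mitochondrial ribosome, and the mRNAs encode subunits of the respiratory chain, the ND proteins in complex I, cytochrome b in complex III and the CO proteins in complex IV. Mature mRNAs and rRNAs carry short A tails, which in several mRNAs complete the stop codon.

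Libraries were made with CEL-Seq2, which primes reverse transcription with oligo-dT and reads the 3′ end, so the sequences near an A run or an end are shown. Sequences and positions are those of GRCm38 in the GENCODE M21 transcripts, and all 10 members lie on the heavy-strand transcript. The rRNA windows below are centred on the longest run of A inside each gene, in capitals. That run is 5 bases in mt-Rnr1 at chrM:70-1024, which has 0 runs of 6 or more, and 7 bases in mt-Rnr2 at chrM:1094-2675, which has 4. The windows span chrM:715-769 and chrM:1463-1519.
mt-Rnr1: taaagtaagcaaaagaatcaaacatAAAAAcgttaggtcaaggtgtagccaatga
mt-Rnr2: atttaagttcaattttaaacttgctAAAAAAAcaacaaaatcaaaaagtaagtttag

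The last 30 bases of 5 mRNAs are shown next, with the bases of the last codon in capitals. mt-Nd1 at chrM:2751-3707 and mt-Co1 at chrM:5328-6872 end in a whole stop codon. mt-Co3 at chrM:8607-9390, mt-Nd4 at chrM:10167-11544 and mt-Cytb at chrM:14145-15288 end in a single T, and 2 bases of the stop codon are not in the gene. The other members, mt-Nd2 at chrM:3914-4951, mt-Co2 at chrM:7013-7696 and mt-Nd5 at chrM:11742-13565, end in TAG, TAA and TAA.
mt-Nd1: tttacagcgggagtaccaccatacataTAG
mt-Co1: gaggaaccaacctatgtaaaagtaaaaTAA
mt-Co3: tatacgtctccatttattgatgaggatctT
mt-Nd4: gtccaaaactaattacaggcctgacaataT
mt-Cytb: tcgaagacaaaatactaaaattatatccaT

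Nuclear copies of mitochondrial DNA limit what a level of some members means. Windows of 50 bases with an identical match in an annotated nuclear transcript made up 100% of mt-Co2, 99.9% of mt-Co3, 62.2% of mt-Nd4, 51.1% of mt-Co1, 8.19% of mt-Nd2, 7.61% of mt-Nd5 and 1.04% of mt-Rnr2. For mt-Rnr1, mt-Nd1 and mt-Cytb the share was 0%. In the last 300 bases the share was 100% for mt-Co1, 31.9% for mt-Nd2, 1.99% for mt-Nd5 and 0% for mt-Nd4. The copies of the chromosome 1 cluster, Gm28437, Gm28438, Gm28439, Gm10925, Gm28661 and Gm29216 at chr1:24611535-24616197, had at most 20.7 normalized counts each in any library. Among the other mitochondrial mRNAs the share was 99.5% for mt-Atp6, 98.0% for mt-Nd3 and 98.8% for mt-Nd4l. A pipeline in the study's methods counted only reads that mapped uniquely, a rule under which reads with identical matches in both places would not be counted. mt-Co2 and mt-Co3 nevertheless had at least 16740 and 7956 normalized counts in every library, and which pipeline made the table is not stated. What the counts of mt-Co1, mt-Co2, mt-Co3 and the genes named with them here hold is therefore uncertain.

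Libraries held 779421 to 7782072 gene-assigned reads, and the lowest depths were those of replicate 3 in both groups of the IL-4 experiment, with 779421 and 849705 reads. Each of the 10 members had at least 575 reads in every library. The eosinophil markers Siglecf and Ccr3 had normalized counts of 1514 to 3367 and 2623 to 4934, whereas Epx, the eosinophil peroxidase gene, had at most 25.7. Siglecf was 3169 to 3367 in ACs alone of the Type 1 experiment, 2508 to 2817 in E. coli + ACs, 1514 to 1702 in IFN-γ + ACs and 1728 to 2020 in the combination. The sum of 8 eosinophil markers in these groups was 7598 to 7997, 8648 to 9832, 4856 to 5678 and 6942 to 8312, and in the IL-4 experiment 9248 to 12339 in ACs and 14094 to 15308 in IL-4 + ACs. Over 13 genes, thymocyte markers summed to 133 to 177 in ACs of the Type 1 experiment and 190.5 to 243 in E. coli + ACs. They summed to 67.7 to 132 in IFN-γ + ACs, 78.65 to 139 in the combination and 54.1 to 88.0 in the IL-4 experiment. Rag1, Rag2 and Dntt were each at 0 in 13 of 18 libraries, whereas Cd3d and Tcf7 had reads in every library. The 9 macrophage markers were all detected, and their sum was 18153 to 23305 in ACs of the Type 1 experiment, 10172 to 12401 in E. coli + ACs, 28259 to 37769 in IFN-γ + ACs and 11734 to 12820 in IFN-γ + E. coli + ACs. In the IL-4 experiment it was 27613 to 40039 in ACs and 22465 to 37522 in IL-4 + ACs. In bulk RNA, fewer cells of a type and less RNA per cell cannot be told apart.

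The members together took the largest share of the library in ACs alone of the Type 1 experiment, with 10.5% ± 0.479 (SD, n = 3) of reads counted on genes. The share was 6.49% ± 0.424 in E. coli + ACs, 8.23% ± 0.614 in IFN-γ + ACs and 5.64% ± 0.611 in IFN-γ + E. coli + ACs. In the IL-4 experiment it was 4.51% ± 1.22 in ACs and 4.78% ± 0.214 in IL-4 + ACs. The order in the Type 1 experiment was thus ACs, IFN-γ + ACs, E. coli + ACs and IFN-γ + E. coli + ACs. The ranges of the last 2 in that order overlapped, from 6.11% to 6.95% and from 5.14% to 6.32%, and the other neighbours did not overlap. These shares are given as a description, without a test. All 37 mitochondrial genes gave 4.17% to 11.9% of the reads, and the 10 members made up 84.6% to 93.5% of them.

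The rRNAs and the mRNAs behaved differently in these shares. The 2 rRNAs took 6.68%, 6.97% and 6.23% of the reads in the 3 libraries with ACs alone of the Type 1 experiment. They took 3.26%, 3.04% and 2.45% in E. coli + ACs and 4.54%, 3.98% and 5.31% in IFN-γ + ACs. In IFN-γ + E. coli + ACs they took 1.55%, 2.09% and 1.95%, so the 4 groups did not overlap. In the IL-4 experiment the rRNA share was 0.952%, 0.895% and 2.36% with ACs alone, the last in the library of 779421 reads, and 1.89%, 1.64% and 1.37% with IL-4 + ACs. The 8 mRNAs took between 2.57% and 4.37% in the 18 libraries, and the group means in the Type 1 experiment were 3.84% for ACs, 3.57% for E. coli + ACs, 3.62% for IFN-γ + ACs and 3.78% for the combination. All 4 of these mRNA ranges overlapped.

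**Figure D1:**
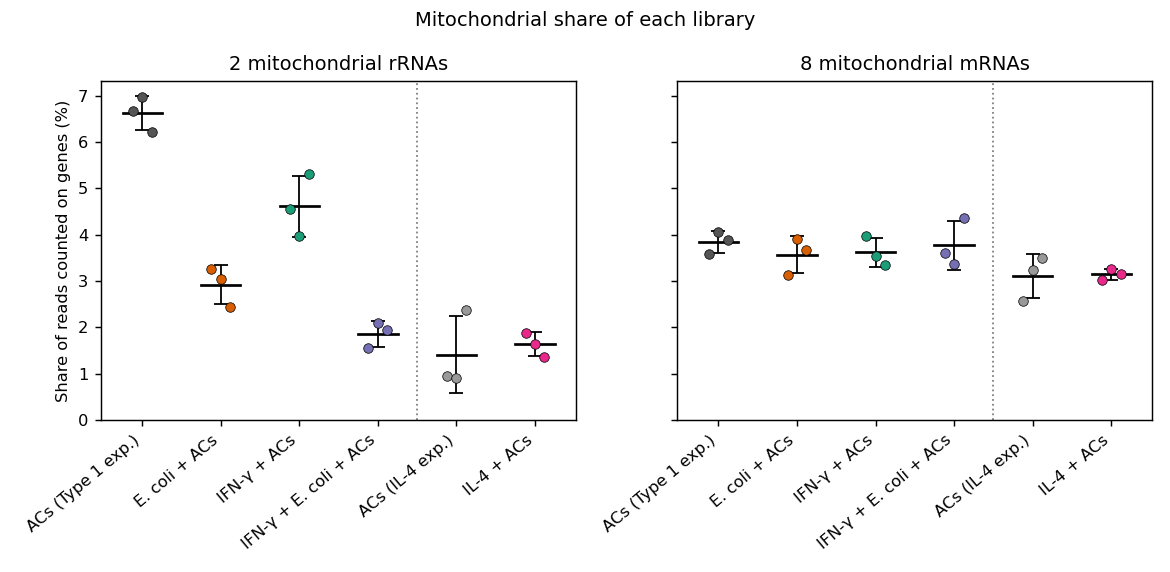
Share of all reads counted on genes (%) taken by the 2 rRNAs (left) and the 8 mRNAs (right) in each library. Points are libraries, bars are means and whiskers are SD (n = 3), and the dotted line separates the Type 1 experiment from the IL-4 experiment. The rRNA share runs from 6.97% down to 1.55% across the Type 1 libraries, and the mRNA share stays between 3.13% and 4.37% there.

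Relating rRNA reads to mRNA reads of the same library removes the scaling of the library from the comparison. With ACs alone in the Type 1 experiment there were 1.86, 1.72 and 1.60 rRNA reads per mRNA read. The ratio was 1.04, 0.779 and 0.668 in E. coli + ACs, 1.15, 1.12 and 1.59 in IFN-γ + ACs, and 0.430, 0.622 and 0.447 in IFN-γ + E. coli + ACs. Each stimulated group lay below ACs alone, although IFN-γ + ACs replicate 3, at 1.585, came close to the lowest ACs library at 1.599. In the IL-4 experiment the ratio was 0.370, 0.277 and 0.674 with ACs alone and 0.625, 0.506 and 0.433 with IL-4 + ACs, and these ranges overlapped.

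**Figure D2:**
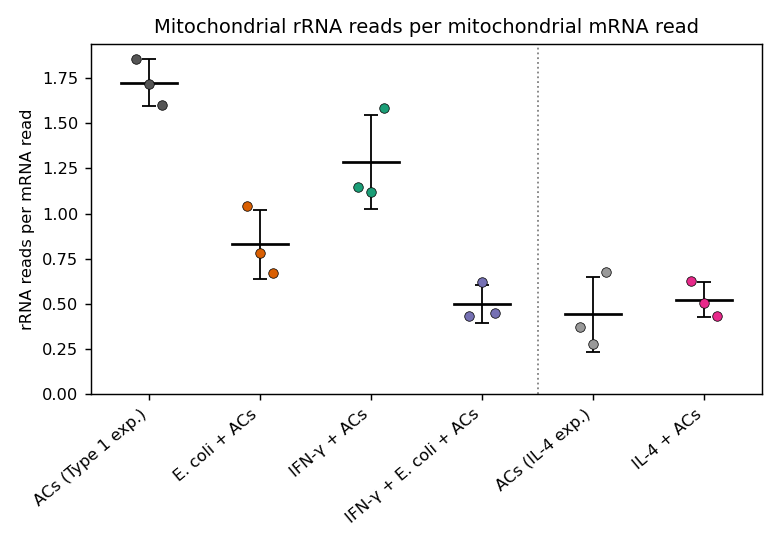
rRNA reads (mt-Rnr1 and mt-Rnr2) per read of the 8 mRNAs in each library. Points are libraries, bars are means and whiskers are SD (n = 3). Means in the Type 1 experiment are 1.73 for ACs, 0.829 for E. coli + ACs, 1.28 for IFN-γ + ACs and 0.500 for IFN-γ + E. coli + ACs.

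Both rRNAs fell with E. coli, and 0 of the 8 mRNAs passed the test. mt-Rnr1, the rRNA of the small subunit, had normalized counts of 35924, 27981 and 30859 with ACs alone and 13711, 13392 and 14848 in E. coli + ACs. It fell by 1.17 on the log2 scale (SE 0.14, adjusted p = 6.5e-06, limma). mt-Rnr2, the rRNA of the large subunit, went from 227160, 248827 and 207168 to 123172, 112890 and 87623 and fell by 1.09 (SE 0.15, adjusted p = 4.5e-05, limma). These groups did not overlap for either rRNA. Thus 2 of 10 members passed the threshold (adjusted p under 0.05 and at least 1.5-fold) where 10.3% of all genes did, and 2 of 10 had groups that did not overlap where 38.3% of all genes did. For the mRNAs 0 of 8 passed in limma, 0 had an unadjusted p under 0.05, and 0 passed in edgeR or DESeq2. Their log2 differences lay between -0.14 for mt-Nd2 (95% interval -0.42 to 0.13) and 0.11 for mt-Co3 (-0.16 to 0.38). The sum of macrophage markers was lower with E. coli as well. The means of C1qc, C1qb, Lyz2, Csf1r, C1qa, Cd68, Mertk and Timd4 were all lower. Adgre1 was the only marker of the list that was higher, with a mean of 1806 in ACs alone and 2366 in E. coli + ACs, without overlap. The sums of eosinophil and of thymocyte markers were higher with E. coli, without overlap. The eosinophil markers did not move together. Ccr3, Ear6, Prg2 and Epx were higher and Siglecf, Il5ra and Ear2 were lower with E. coli, each without overlap. The mean of Ear6 went from 703 to 2002 and that of Siglecf from 3237 to 2640. The part of these cell types in the rRNA difference was not tested.

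mt-Rnr1 fell with IFN-γ, and mt-Rnr2 did not pass the test. mt-Rnr1 had 20543, 15279 and 21988 normalized counts in IFN-γ + ACs, all below ACs alone, and fell by 0.72 on the log2 scale (SE 0.14, adjusted p = 0.00049, limma). Without IFN-γ + ACs replicate 2 the change was -0.56, under 1.5-fold, and mt-Co3 was the member past the threshold. mt-Rnr2 had 189466, 171237 and 219361 normalized counts, of which the last lay within the range of ACs alone, with a log2 difference of -0.24 (95% interval -0.55 to 0.07, adjusted p = 0.26, limma). There were accordingly 9.22, 11.2 and 9.98 mt-Rnr2 reads per mt-Rnr1 read in IFN-γ + ACs, beside 6.32, 8.89 and 6.71 in ACs alone. In share of the library, mt-Rnr2 was 3.65% to 4.82% in IFN-γ + ACs and 5.42% to 6.26% in ACs alone, without overlap. The overlap of its normalized counts thus depends on the scaling. The threshold was passed by 1 of 10 members in this comparison, with 21.4% of all genes called. Without the fold limit 4 of 10 passed, with 27.4% of all genes, and 4 of 10 did not overlap, as 42.9% of all genes did not. Siglecf and the eosinophil sum were lower and the macrophage sum was higher in IFN-γ + ACs than in ACs alone, without overlap, and their part in these differences was not tested.

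The mRNAs of complex IV were higher in IFN-γ + ACs by less than 1.5-fold. mt-Co1, which encodes the catalytic subunit, had 24778, 25166 and 26130 normalized counts with ACs alone and 36991, 34377 and 32567 in IFN-γ + ACs. mt-Co2, which encodes the subunit that takes electrons from cytochrome c, had 16980, 20906 and 16935 with ACs alone and 27768, 24400 and 24063 in IFN-γ + ACs. mt-Co3, which encodes the third mitochondrial subunit of the complex, had 10976, 12163 and 10040 with ACs alone and 18124, 14576 and 15362 in IFN-γ + ACs. For each of these genes the groups did not overlap. The folds were 1.36, 1.39 and 1.45, with adjusted p of 0.048, 0.0090 and 0.0042 (limma), so 0 of 8 mRNAs passed the threshold, in edgeR and DESeq2 as well, and 3 had an unadjusted p under 0.05. Without ACs replicate 2, mt-Co3 passed it. The differences depend on the scaling of the libraries. Scaled by the total reads of each library, the median of all genes moved to -0.24, the log2 differences of the CO mRNAs were 0.21, 0.24 and 0.29, and the adjusted p were 0.34, 0.15 and 0.079. Relative to the median of all genes they were 0.45, 0.48 and 0.53 under both scalings.

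The make-up of the mitochondrial mRNA pool does not depend on such scaling. The 3 CO mRNAs made up 36.4% ± 0.803 (SD, n = 3) of the reads of the 8 mRNAs in ACs alone, 38.6% ± 1.79 in E. coli + ACs, 45.6% ± 1.60 in IFN-γ + ACs and 42.8% ± 3.53 in IFN-γ + E. coli + ACs. The 4 ND mRNAs made up 52.9% ± 1.05, 50.8% ± 1.99, 45.0% ± 1.07 and 47.0% ± 2.86 of the pool in the same order. IFN-γ + ACs did not overlap with ACs alone of the Type 1 experiment in either share. In the IL-4 experiment, without IFN-γ, ACs alone had a CO share of 42.7% ± 3.16 and an ND share of 47.7% ± 2.20. Both of these ranges overlapped with IFN-γ + ACs. IL-4 + ACs had 38.6% ± 1.93 and 50.6% ± 1.58, which did not overlap with IFN-γ + ACs. Between the experiments, stimulus and batch cannot be told apart, and how far the shift is particular to IFN-γ was not tested. The other 5 mRNA members had log2 differences from -0.26 (mt-Nd2, adjusted p = 0.16, limma) to 0.07 (mt-Nd1, 95% interval -0.18 to 0.31) in IFN-γ + ACs.

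The remaining mRNAs, for subunits of complexes I and III, had normalized counts that overlapped with ACs alone in E. coli + ACs and in IFN-γ + ACs. mt-Nd1 had 18258, 22216 and 19653 normalized counts in E. coli + ACs and 23247, 21414 and 18268 in IFN-γ + ACs. mt-Nd4 had 22794, 25731 and 25193 in ACs alone, 20324, 26197 and 23497 in E. coli + ACs and 25464, 27678 and 21153 in IFN-γ + ACs. mt-Cytb had 15129, 18168 and 15287 in ACs alone, 13731, 17140 and 16710 in E. coli + ACs and 16979, 16752 and 13577 in IFN-γ + ACs. In normalized counts neither group stood apart from ACs alone for these 3 genes. mt-Nd2 had 26858, 31510 and 30150 in ACs alone and 28404, 22870 and 22944 in IFN-γ + ACs, where libraries 2 and 3 lay below all of ACs alone and library 1 did not. In share of the library, mt-Cytb was 0.298% to 0.367% in IFN-γ + ACs beside 0.384% to 0.457% in ACs alone. The share of mt-Nd2 was 0.488% to 0.615% beside 0.682% to 0.793%. Neither gene overlapped in that measure.

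**Figure D3:**
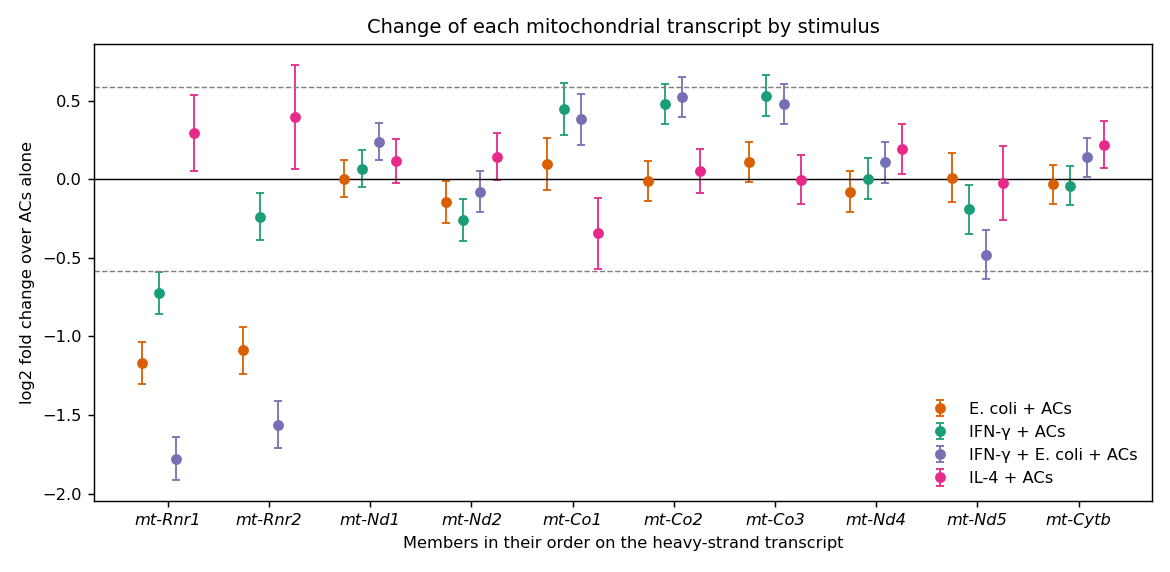
log2 fold change over ACs alone of the same experiment for each member, from the limma fit, in the order of the genes on the heavy-strand transcript. Points are estimates, whiskers are SE, and dashed lines mark 1.5-fold. Only the rRNAs pass the lower line with an adjusted p under 0.05, and mt-Co1, mt-Co2 and mt-Co3 lie between 0.38 and 0.53 in both IFN-γ groups.

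The combination of IFN-γ and E. coli gave the lowest rRNA counts of the Type 1 experiment. mt-Rnr1 had 8020, 9930 and 9647 normalized counts, 3.43-fold lower than in ACs alone, with a log2 change of -1.78 (SE 0.14, adjusted p = 5.9e-09, limma). mt-Rnr2 had 64638, 85380 and 82208, 2.96-fold lower, with a log2 change of -1.56 (SE 0.15, adjusted p = 1.2e-07, limma). Every library lay below every library of ACs alone. Siglecf and the macrophage sum were also lower in the combination than in ACs alone, without overlap. Ccr3 was higher, with a mean of 3275 in ACs alone and 4498 in the combination, without overlap. The eosinophil sums of these groups overlapped. Adgre1 and Mertk of the macrophage list were higher in the combination, without overlap. The part of these markers in the rRNA differences was not tested. The threshold was passed by 2 of 10 members, with 31.9% of all genes called. Without the fold limit 5 of 10 passed, with 39.1% of all genes, and 6 of 10 did not overlap, with 48.8% of all genes.

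Among the mRNAs in IFN-γ + E. coli + ACs, 0 of 8 passed the threshold in limma, edgeR or DESeq2, and 4 had an unadjusted p under 0.05. mt-Co2 had 25359, 22508 and 31199 normalized counts, a fold of 1.44 over ACs alone (adjusted p = 0.0034, limma). mt-Co3 had 15675, 12769 and 18136, a fold of 1.39 (adjusted p = 0.0062, limma). mt-Co1 had 35727, 24184 and 41653, and its lowest library lay below all 3 of ACs alone. Replicate 2 was the lowest of this group for each CO mRNA, and without it mt-Co1, mt-Co2 and mt-Co3 passed the threshold, so that 5 of 10 members did. mt-Nd5 had 3659, 3425 and 4832 normalized counts, all below the 5052, 5893 and 5516 of ACs alone, with a fold of 0.717 (adjusted p = 0.020, limma). mt-Nd1 had 22687, 21847 and 26267, above the 18978, 21340 and 19586 of ACs alone, with a log2 difference of 0.24 (95% interval -0.01 to 0.49). In share of the library, mt-Nd1 was 0.479% to 0.558% in the combination and 0.482% to 0.537% in ACs alone, which overlapped. Scaled by total reads the log2 difference of mt-Co1, mt-Co2 and mt-Co3 was 0.13, 0.27 and 0.23, with adjusted p of 0.53, 0.085 and 0.14 (limma). Under that scaling the mt-Nd5 log2 difference was -0.73 and mt-Nd5 passed the threshold, as it did without replicate 3 of the group. With a common upper quartile mt-Co2 and mt-Co3 passed, and without ACs replicate 2 mt-Co2 did.

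Between the groups that both had IFN-γ, the rRNAs were lower where E. coli was added. mt-Rnr1 fell by 1.06 and mt-Rnr2 fell by 1.32 on the log2 scale in IFN-γ + E. coli + ACs relative to IFN-γ + ACs, and the 2 rRNAs were the members past the threshold, with 14.6% of all genes called. They were also the 2 of 10 that did not overlap, beside 29.6% of all genes. The macrophage sum was lower in the combination, at 11734 to 12820 beside 28259 to 37769 in IFN-γ + ACs. Adgre1 of that list was higher, with a mean of 2078 in IFN-γ + ACs and 2987 in the combination, without overlap. Siglecf and the eosinophil sum were higher in the combination, without overlap. The part of these differences in the rRNA change was not tested. For the mRNAs 0 of 8 passed in limma, edgeR and DESeq2, and 0 had an unadjusted p under 0.05. Between the groups that both had E. coli, mt-Rnr1 fell by 0.61 on the log2 scale where IFN-γ was added (adjusted p = 0.0028, limma), and mt-Rnr2 differed by -0.48 (adjusted p = 0.026, limma), a fold under 1.5. Here 1 of 10 members passed, with 19.4% of all genes called. Without the fold limit 5 of 10 passed, with 25.3% of all genes, and 3 of 10, the rRNAs and mt-Co2, did not overlap, with 39.3% of all genes. The folds of mt-Co2, mt-Co3 and mt-Nd5 were 1.45, 1.29 and 0.712, with adjusted p of 0.0052, 0.042 and 0.028 (limma). With a common upper quartile mt-Co2 was the 1 member past the threshold, and mt-Rnr1 was at -0.54. Without IFN-γ + E. coli + ACs replicate 1 the mt-Rnr1 change was -0.51 and 0 members passed, and without E. coli + ACs replicate 3 it was -0.57 and mt-Rnr2 and mt-Nd5 passed, while mt-Rnr1 with mt-Co2 passed without replicate 2 of either group and mt-Rnr1 with mt-Nd5 without replicate 3 of the combination.

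The effect of E. coli was not shown to differ with and without IFN-γ. The interaction was 0.11 (95% interval -0.29 to 0.52) on the log2 scale for mt-Rnr1 and -0.24 (-0.68 to 0.21) for mt-Rnr2. It was past an adjusted p of 0.05 for 0 of 10 members in limma, edgeR and DESeq2, with 0 at an unadjusted p under 0.05 in limma, where 7.76% of all genes passed.

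**Figure D4:**
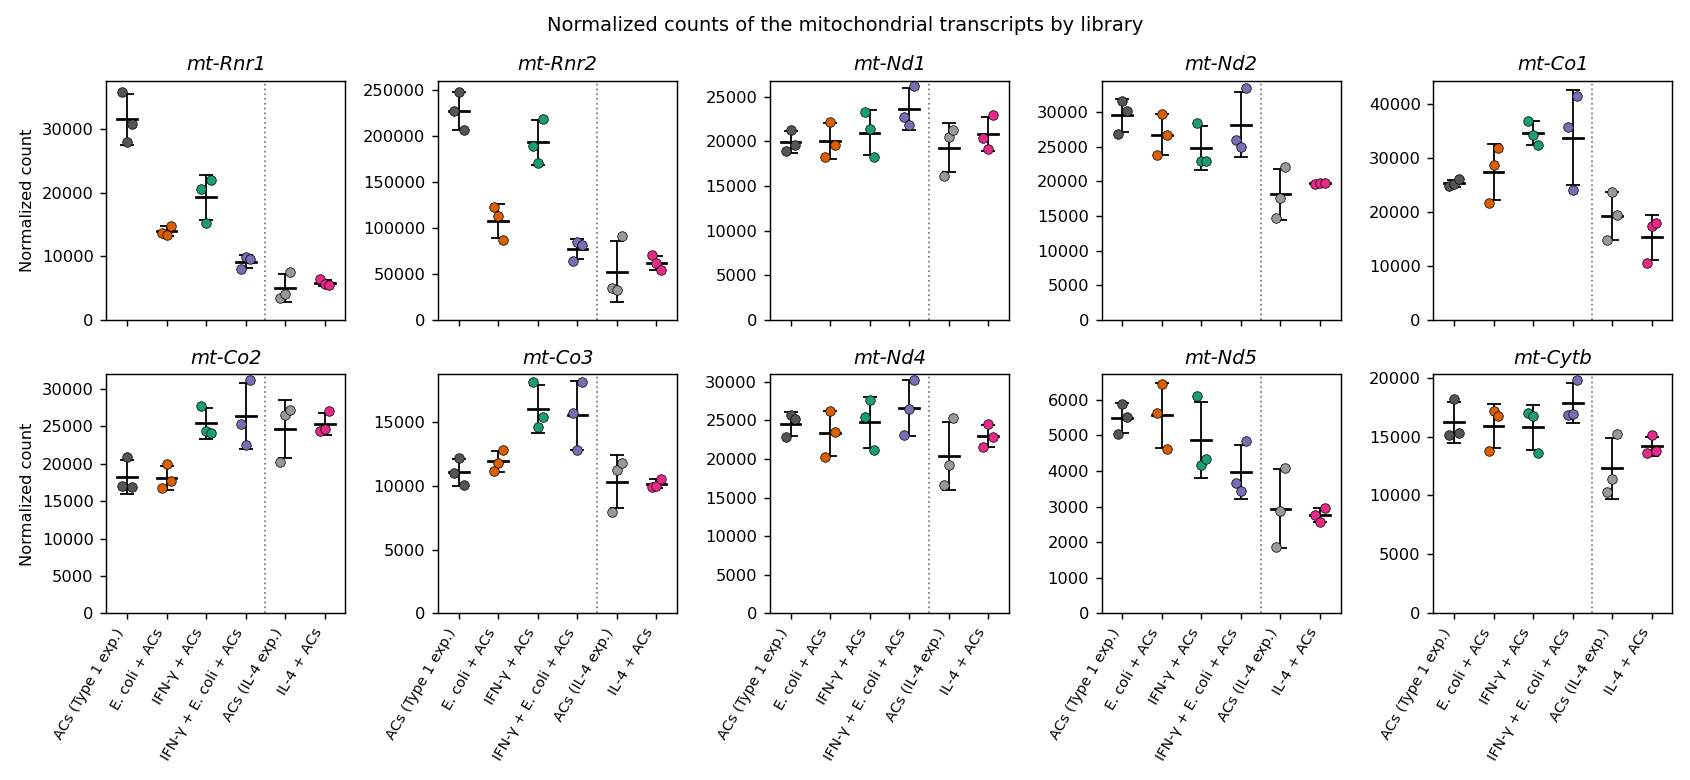
Normalized counts of the 10 members in each library. Points are libraries, bars are means and whiskers are SD (n = 3), and the dotted line separates the 2 experiments. In the Type 1 experiment both rRNAs are highest in ACs alone and lowest in IFN-γ + E. coli + ACs, and the E. coli + ACs points of the 8 mRNAs overlap those of ACs alone.

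IL-4 gave no call among the members with all libraries. mt-Rnr1 had 3491, 4127 and 7517 normalized counts with ACs alone and 6386, 5732 and 5474 in IL-4 + ACs. mt-Rnr2 had 34479, 32760 and 91235 with ACs alone and 70380, 61630 and 54319 in IL-4 + ACs. Replicate 3 of ACs alone stood above all other libraries of the experiment for both rRNAs. The log2 differences were 0.30 (95% interval -0.24 to 0.83) and 0.40 (-0.34 to 1.14), with adjusted p of 0.73 and 0.73 (limma). The threshold was passed by 0 of 10 members in limma, edgeR and DESeq2, 0 had an unadjusted p under 0.05, and 1.09% of all genes were called. All 10 members overlapped between the groups, and 17.3% of all genes did not overlap. Without replicate 3 of ACs alone, mt-Rnr2 was 0.88 higher on the log2 scale (adjusted p = 0.018, limma). Without the replicate 3 libraries of both groups, an alternative chosen after the data were seen, mt-Rnr1 was 0.67 higher (adjusted p = 0.0031, limma) and mt-Rnr2 was 0.97 higher (adjusted p = 0.00055, limma), in a fit of 4 libraries. The 8 mRNAs had log2 differences from -0.34 (mt-Co1, 95% interval -0.85 to 0.16) to 0.22 (mt-Cytb, -0.12 to 0.56).

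ACs alone was sequenced in both experiments, and the log2 differences of the rRNAs between those groups were larger in size than in the comparisons of stimuli, which was not tested. In the IL-4 experiment mt-Rnr1 was lower by a log2 difference of -2.72 (SE 0.24) and mt-Rnr2 by -2.28 (SE 0.33) than in the Type 1 experiment. mt-Nd2 differed by -0.72, from 26858, 31510 and 30150 to 14722, 17570 and 22030 normalized counts, and mt-Nd5 by -0.97, from 5052, 5893 and 5516 to 1866, 2882 and 4069. These 4 of 10 members passed the threshold, with 19.2% of all genes called, and 5 of 10, these and mt-Co1, did not overlap, with 42.2% of all genes. mt-Nd5 did not pass without ACs replicate 2 or 3 of the Type 1 experiment, with adjusted p of 0.064 and 0.055 (limma), and mt-Nd2 was at -0.58, under 1.5-fold, without ACs replicate 1 of the IL-4 experiment. The labels give the same treatment for both groups, and the experiment, its batch and its libraries cannot be told apart. Tests of stimuli were therefore kept within an experiment. The shares of the mRNA pool set side by side across the experiments carry this limit.

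The other mitochondrial mRNAs included the light-strand transcript mt-Nd6, a complex I subunit with few counts. mt-Nd6 had 27.7 to 41.5 normalized counts in ACs alone of the Type 1 experiment, 5.86 to 24.6 in E. coli + ACs, 18.3 to 28.7 in IFN-γ + ACs and 8.55 to 13.8 in IFN-γ + E. coli + ACs. It fell with E. coli to 0.374-fold (adjusted p = 0.041, limma) and with the combination to 0.369-fold (adjusted p = 0.015, limma). mt-Nd6 overlaps the end of mt-Nd5 on the opposite strand by 14 bases, and the strand setting of the counting is not given in the sources used here. mt-Atp6, a subunit of ATP synthase, had a mean of 27141 ± 2347 (SD, n = 3) in ACs alone and 37793 ± 3808 in the combination, a fold of 1.39 (adjusted p = 0.0072, limma). mt-Atp8, another ATP synthase subunit, rose 1.82-fold in the combination relative to E. coli + ACs (adjusted p = 0.0038, limma). Its last 43 of 204 bases overlap mt-Atp6 on the same strand, where counting in union mode, as one pipeline in the methods did, would assign no read, and its count would then leave out the 3′ end. mt-Nd3 rose 1.66-fold in that comparison (adjusted p = 0.044, limma), although its ranges of 2178 to 3471 and 2558 to 6683 overlapped. mt-Nd4l passed in no comparison of stimuli. Of 22 mitochondrial tRNAs, 18 had any read, with 801 reads in all libraries together.

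Nuclear genes for the machinery of mitochondrial transcription and RNA handling gave at most 4 calls in a comparison with ACs alone. Of 34 genes listed, 33 were in the table and 28 were tested in the Type 1 experiment. With E. coli 0 rose and 1 fell, with IFN-γ 1 rose and 2 fell, and with the combination 1 rose and 3 fell. These are 3.57%, 10.7% and 14.3% of the list, beside 10.3%, 21.4% and 31.9% of all genes, and the median log2 differences of the list were -0.08, -0.09 and -0.13, beside 0.00, 0.00 and -0.05 for all genes. Hsd17b10, a subunit of the mitochondrial RNase P that cuts tRNAs out of the transcript, had a mean of 119 ± 14.4 (SD, n = 3) in ACs alone, 73.8 ± 14.7 in E. coli + ACs, 58.1 ± 6.67 in IFN-γ + ACs and 49.1 ± 10.4 in the combination. Hsd17b10 fell with IFN-γ and with the combination, with adjusted p of 0.0022 and 0.00019 (limma). With E. coli its adjusted p was 0.048 (limma), a call lost on leaving out any 1 of the 6 libraries, with a common upper quartile and without the filter on low values. Slirp, which binds mitochondrial mRNAs with Lrpprc, rose 2.14-fold with IFN-γ (adjusted p = 0.00018, limma) and 1.53-fold with the combination (adjusted p = 0.014, limma), the latter not without ACs replicate 1. Lrpprc fell to 0.630-fold (adjusted p = 0.034, limma) and Polg2, the accessory subunit of the mitochondrial DNA polymerase, fell to 0.393-fold (adjusted p = 0.0031, limma) with the combination. Mterf1b, a gene of the mitochondrial termination factor family, fell to 0.468-fold with IFN-γ (adjusted p = 0.037, limma). Scaled by total reads, 1 of the 28 rose and 7 fell with IFN-γ, where 736 of 10188 genes were called higher and 1873 lower. Under that scaling 0 rose and 7 fell with the combination, where 934 of 10188 genes were called higher and 2698 lower. Scaled by the reads of nuclear genes, 1 rose and 9 fell with IFN-γ, where 691 of 10196 genes were called higher and 2074 lower. With IL-4 0 of the genes tested passed in limma, 1 had an unadjusted p under 0.05.

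Transcripts of the genes for mitochondrial ribosomal proteins were lower mainly in the combination. These proteins bind the 2 rRNAs, and their levels were not measured. Of 83 genes whose symbol begins with Mrpl or Mrps and a number, 76 were tested in the Type 1 experiment. With E. coli 1 rose and 1 fell, 2.63% of the list beside 10.3% of all genes, and with IFN-γ 3 rose and 3 fell, 7.89% beside 21.4%. Mrpl33, the gene that fell with E. coli, was not called without replicate 2 of ACs or of E. coli + ACs. Scaled by total reads or by the reads of nuclear genes, 0 rose and 16 fell with IFN-γ. Of all genes, 1873 of 10188 and 2074 of 10196 were called lower under these scalings. Without IFN-γ + ACs replicate 2, 2 rose and 6 fell, and without replicate 3, 2 rose and 1 fell. The genes called lower were then 945 of 10158 and 922 of 10149. With the combination 2 rose and 27 fell, 38.2% called beside 31.9% of all genes, of which 17.2% were called lower, and the median log2 difference was -0.41 beside -0.05 for all genes. Of the 76 genes 67 had a difference below 0. Mrps5 fell from 102 ± 8.06 (SD, n = 3) in ACs alone to 27.3 ± 13.4, a fold of 0.257 (adjusted p = 1.2e-05, limma), and Mrpl28 from 33.7 ± 4.13 to 12.2 ± 8.21, a fold of 0.336 (adjusted p = 0.0088, limma). Mrpl45 rose 2.37-fold (adjusted p = 4.1e-05, limma) and Mrpl54 rose 2.26-fold (adjusted p = 0.0018, limma). Under the scalings tried, 21 (common upper quartile) to 45 (reads of nuclear genes) of the 76 fell and 2 rose. Of all genes, 1424 of 10158 and 3079 of 10196 were called lower under those scalings, in that order.

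Relative to E. coli + ACs, 0 of the 76 ribosomal protein genes rose and 21 fell in the combination, with a median log2 difference of -0.54, where 9.57% of all genes were called lower. This count was 10 without E. coli + ACs replicate 1 and 8 without E. coli + ACs replicate 3, 12 with a common upper quartile and 35 when scaled by the reads of nuclear genes. Of all genes, 717 of 10163, 665 of 10158, 815 of 10158 and 1601 of 10196 were called lower there, in the same order. Relative to IFN-γ + ACs, 0 rose and 7 fell, 9.21% of the list beside 14.6% of all genes. Without IFN-γ + ACs replicate 1, 4 fell, where 779 of 10169 genes were called lower. The interaction of IFN-γ and E. coli passed for 1 gene, Mrpl10, at -0.90 on the log2 scale (adjusted p = 0.048, limma), beside 7.76% of all genes. With a common upper quartile, in edgeR, with all 18 libraries in 1 fit and in most fits that left out a library, 0 of these genes were called lower. With IL-4 0 of 77 tested passed in limma, and 3 had an unadjusted p under 0.05.

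**Figure D5:**
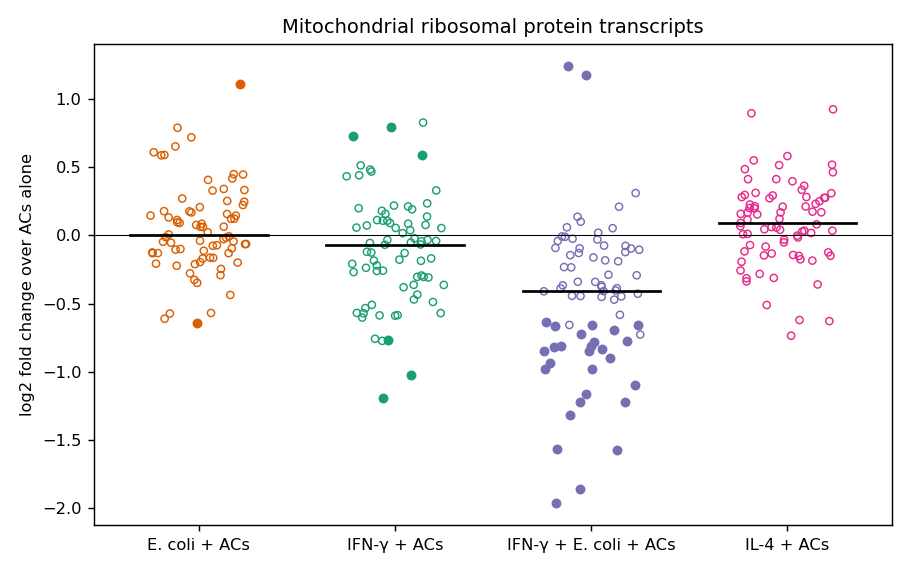
log2 fold change over ACs alone of the same experiment for each tested gene of the mitochondrial ribosomal proteins, from the limma fit. Each point is a gene, filled points passed the threshold, and bars are medians. In IFN-γ + E. coli + ACs 27 genes lie low as filled points and the median is -0.41.

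The genes whose levels ran most like the members were found by Pearson's r over the 18 libraries among 6892 genes, which share depth, scaling and the split into experiments with the members. For the rRNAs these included Hspb1 (r = 0.920), Tent5a (0.919), Bptf (0.919) and Fcgr1 (0.881), and within the 12 libraries of the Type 1 experiment r was 0.761 to 0.877. For the mRNAs they were Sec31a (r = 0.884), Agfg1 (0.865), Mterf3 (0.864), Tnfsf10 (0.854) and Ifi214 (0.851), with 0.582 to 0.723 in the Type 1 experiment. These values are descriptions, without a test.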

How the data were processed

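RNA was measured by CEL-Seq2 from 2 ng of RNA per library. The deposited signal is a normalized count, a gene's reads over the size factor of its library (DESeq2). The submitters' processing notes name cutadapt 1.10, TopHat2 2.1.0, Bowtie2 2.2.6, HTSeq 0.6.1, DESeq2 1.26.0 and GRCm38, whereas the methods also describe a second pipeline. Which of them made the table, and whether molecular identifiers were collapsed, is not given in the sources used here. Counting in union mode leaves reads over overlapping genes uncounted.

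Values were whole multiples of 1 step per library for at least 99.6% of values (tolerance 2% of a step plus rounding), so whole reads were recovered for edgeR 4.0.16 and DESeq2 1.42.0. Depth was 779421 to 7782072 reads, and 3 reads stood for 16.1 and 15.4 normalized counts in the shallowest libraries, both of the IL-4 experiment.

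Comparisons were fitted with limma 3.58.1 in R 4.3.3 on log2(normalized count + 1) for genes with a mean of at least 10, with Benjamini-Hochberg adjustment over all genes tested, a threshold of 0.05 and 1.5-fold (no fold limit for the interaction). Stimuli of the Type 1 experiment shared 1 fit of 12 libraries, and the IL-4 comparison used 6. Fold changes are on this log2 scale. Code was tested on simulated data. Members, gene lists and tests were chosen with earlier results of these data known. Named were all members, the other mitochondrial mRNAs, and up to 3 genes per list and direction with the largest changes, of which some are given. One gene named by the likeness rule is not reported here.

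The groups came from the labels, and the labels do not tie libraries to animals, so p-values measure the spread between libraries. Chi-square per degree of freedom between replicates was 4.19 to 14.7, above counting error. Alternatives were other pseudocounts, filters, scalings and tools, the replicate number as a block, all 18 libraries in 1 fit, and each library left out.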

Additional observations from a re-analysis of the deposited data

How the results depend on the processing

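Of the alternatives for counts of members and shares, 144 of 165 left the value within 1.5 times or 1 SD. For the shares this says little, because leaving out 1 of 3 libraries cannot move a mean by 1 SD. Leaving out the rRNA, the other alternative for the shares, moved the share by more than 1 SD in every group. Without a fold threshold, 4 members passed for IFN-γ + ACs, 5 for IFN-γ + E. coli + ACs against ACs and 5 against E. coli + ACs. With a common upper quartile 4 passed for IFN-γ + E. coli + ACs against ACs. Scaled by total reads or by the reads of nuclear genes, 3 and 3 passed against E. coli + ACs. Without the replicate 3 libraries of both groups, chosen after the data were seen, 2 passed for IL-4, and 656 genes instead of 116 were called. Leaving out each library in turn gave 1 to 2 members for IFN-γ + ACs, 2 to 5 for IFN-γ + E. coli + ACs against ACs, 0 to 2 against E. coli + ACs, 0 to 1 for IL-4, 3 to 4 between the ACs groups, and a constant 2 for E. coli + ACs, 2 for the combination against IFN-γ + ACs and 0 for the interaction. The mt-Rnr1 interaction turned to -0.045 without IFN-γ + ACs replicate 2 (range -0.045 to 0.22 over IFN-γ + ACs replicates). With rRNA left out of numerator and denominator the share was 4.12%, 3.68%, 3.79% and 3.85% in ACs, E. coli + ACs, IFN-γ + ACs and IFN-γ + E. coli + ACs, and 3.15% and 3.20% in ACs and IL-4 + ACs of the IL-4 experiment. The cause of these changes was not tested.

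Scaling by the reads of nuclear genes moved the median of all genes by -0.16, -0.27 and -0.37 (log2) for E. coli, IFN-γ and the combination against ACs. Calls over all genes for the combination were then 826 higher and 3079 lower, beside 1494 and 1746.

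The replicate number did not pair the libraries: same-numbered libraries had residual correlations of -0.089 to 0.085 (mean 0.0054) in the Type 1 experiment and 0.00053 to 0.021 in the IL-4 experiment. With the replicate number as a block the members past the threshold were 2 for E. coli, 1 for IFN-γ, 2 for the combination against ACs, 2 against IFN-γ + ACs, 1 against E. coli + ACs and 0 for the interaction and for IL-4, and IL-4 calls over all genes went from 116 to 45 higher and 29 lower, and Hsd17b10 with E. coli and the Mrpl10 interaction were no longer called.

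Read numbers were lowest for mt-Nd6, mt-Atp8, mt-Nd4l and the tRNAs. The part of depth in the IL-4 comparison of the rRNAs was not tested.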
